A study of Mus musculus with 6 samples.

Results

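Collagens are secreted or membrane-bound proteins built from 3 chains wound into a triple helix, and each chain is the product of its own gene. Of the 24421 gene symbols with deposited counts, 44 had a name of the form Col, number, a, number, and all 44 were taken as the collagen genes. They were grouped by the kind of assembly their chains form: 11 fibrillar, 6 basement membrane (type IV), 9 FACIT (fibril-associated collagens with interrupted triple helices), 4 transmembrane, 2 multiplexin, 7 beaded filament, 4 network and anchoring, and 1 other.

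RNA was measured in cochlear explants, pieces of the hearing organ of WT mice at postnatal day 2 that were kept in culture. The neomycin group received 1 mM neomycin, an aminoglycoside that kills hair cells (HCs), for 6 h after a first 12 h in culture, and both groups were collected after 5 further days with EdU at 10 μM, a label of newly made DNA. There were 3 control and 3 neomycin samples, each RNA from a pool of 6 to 8 cochleae, and the tectorial membrane, the modiolus and the rudiment of the stria vascularis had been taken off before culture. The growth text of the labels names neomycin for all 6 samples, so the control group rests on the sample titles and the treatment label. The sex of the animals is not given in the sources used here.

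Fibrillar collagens give tissue its tensile strength, and in the cochlea types II and XI, together with the FACIT type IX, are known from the tectorial membrane, the spiral limbus and cartilage. Type IV collagens form the sheet of every basement membrane. Mutations in Col4a3, Col4a4 and Col4a5 cause Alport syndrome, in which kidney disease comes with hearing loss, and mutations in Col2a1, Col9a1, Col11a1 and Col11a2 are also known causes of hearing loss.

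Total counts ran from 50471116 to 66068108 per sample. Of 15988 genes with enough counts to be tested, 8.84% were called, which here means an adjusted p-value under 0.05 by edgeR's quasi-likelihood test and a fold change over 1.5, with 2.24% called higher and 6.60% called lower after neomycin. Of 10 HC markers 9 were called lower, and their summed level was 470.0 to 605 CPM (counts per 1000000 of a TMM-scaled library) in control and 74.9 to 103 CPM after neomycin, with no marker at 0 in all samples. The HC marker with the highest level was Ocm, at 303 ± 72.6 CPM in control and 28.6 ± 2.94 CPM after neomycin (mean ± SD, n = 3 each). The median coefficient of variation within a group was 9.19% in control and 8.12% after neomycin over all genes tested. The labels do not say that the pools of a group came from separate litters or cultures, so p-values measure the spread between these samples. In bulk RNA, fewer cells of a type and less RNA per cell cannot be told apart.

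After neomycin, 9 of the 41 collagen genes tested were called, 3 higher and 6 lower, or 21.95% against 8.84% of all genes. The genes that rose were Col13a1, Col15a1 and Col24a1, and those that fell were Col1a1, Col5a3, Col4a1, Col4a3, Col4a4 and Col12a1. With the adjusted p-value alone, 23 of the 41 passed, 8 higher and 15 lower, or 56.1% against 29.0% of all genes, of which 12.9% were higher and 16.1% lower. The groups did not overlap in CPM for 22 of the 41 (53.66%, against 43.5% of all genes). The median log2 fold change of the collagen genes was -0.22, with 22 negative and 19 positive values, and that of all genes was -0.00. The collagen genes differed more among the control samples than most genes did: control 1 was the highest of the controls for 30 of the 41 (73.2%, against 34.8% of all genes), and their median coefficient of variation was 17.5% in control and 7.97% after neomycin. Without control 1 the calls were 4 higher and 4 lower, and the median was -0.03.

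The 3 collagen genes not tested were Col10a1, a marker of hypertrophic cartilage with 0 to 17 counts per sample, Col6a4 with 0 to 3 and Col6a5 with 0 to 13. Col17a1, a hemidesmosome protein of epithelia, passed the filter with 0 to 20 counts. A count of 0 in a sample of this size allows up to 3 counts, and this limit covers counting error only.

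The share of all counts that fell on collagen genes was 1.88%, 1.62% and 1.49% in control 1, 2 and 3 and 1.77%, 1.70% and 1.67% in neomycin 1, 2 and 3, and these ranges overlap. To compare genes, counts were divided by the exon length in kilobases as well as by the scaled library size (FPKM). Col9a1, a chain of the FACIT type IX, had the highest level at 669 ± 48.7 FPKM in control and 858 ± 38.6 FPKM after neomycin (mean ± SD, n = 3 each, as below). The next 3 were Col9a2 at 511 ± 36.6 and 637 ± 23.5 FPKM, Col2a1 at 551 ± 82.9 and 574 ± 32.2 FPKM, and Col9a3 at 455 ± 22.6 and 618 ± 27.9 FPKM. Col2a1 did not differ from either of these type IX neighbours beyond their SDs in control, and from Col9a3 not after neomycin either. Col11a2, Col3a1, Col11a1 and Col1a2 followed, with means over all 6 samples of 296, 204, 140.4 and 136 FPKM. These 8 genes, each over 100 FPKM, held 81.34% to 82.38% of the collagen counts in control and 85.09% to 85.32% after neomycin. At the other end 8 of the 44 had a mean under 1 FPKM.

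**Figure D1:**
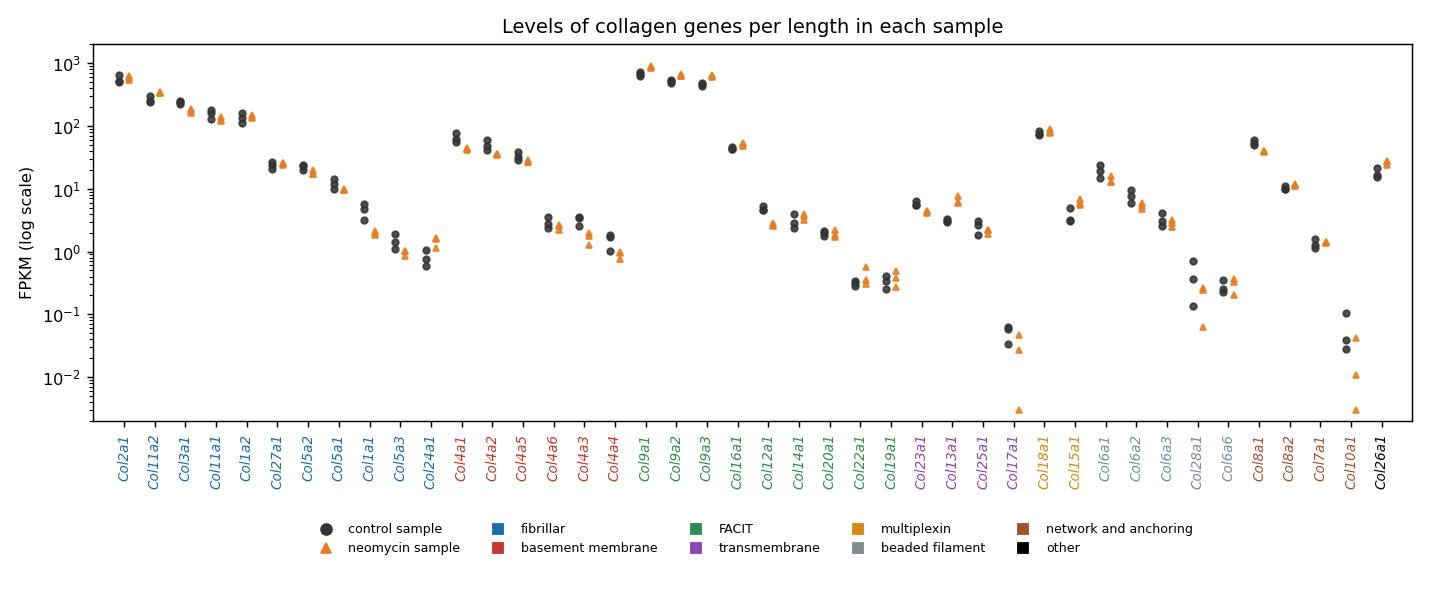
FPKM of each collagen gene in each sample on a log scale, circles for control and triangles for neomycin, with gene names coloured by class and ordered by level within a class; Col6a4 and Col6a5 are left out, and a count of 0 (Col10a1 and Col17a1 in neomycin 3) is drawn at the lowest position. The type II and type IX chains stand at the top of the plot, and most basement membrane genes have their neomycin samples below their control samples.

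Among the 11 fibrillar collagens, 1 was called higher and 2 lower, 2 passed higher and 5 lower on the adjusted p-value alone, and the median log2 fold change was -0.29. For this and each class below, the shares of all genes were 2.24% called higher and 6.60% called lower. On the adjusted p-value alone 12.9% of all genes passed higher and 16.1% lower. Col1a1, the main chain of type I collagen in bone and skin, had the largest fall by log2 fold change of the collagen genes that passed the test. It stood at 34.2, 28.4 and 18.8 CPM in control 1, 2 and 3 and at 11.8, 10.9 and 12.8 CPM in neomycin 1, 2 and 3. Every neomycin sample was below every control sample, and the controls spread over a wider range than the neomycin samples. Its log2 fold change was -1.20 (SE 0.17, adjusted p = 0.000469 by edgeR), a level 2.30-fold higher in control.

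Col1a2, whose chain joins Col1a1 in type I collagen, stood at 852, 703 and 583 CPM in control and at 797, 709 and 725 CPM after neomycin. Its groups overlapped, with 0.06 on the log2 scale (adjusted p = 0.735). Per length, the Col1a1 level was 0.0362, 0.0365 and 0.0291 of the Col1a2 level in the controls and 0.0134, 0.0139 and 0.0159 of it after neomycin, although type I collagen holds more Col1a1 than Col1a2 chains. How the counting treated reads that match several places is not given in the sources used here, and its part in this ratio was not tested.

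Col5a3, a minor chain of type V collagen, which regulates fibril width, stood at 11.5, 8.53 and 6.71 CPM in control and at 5.25, 6.32 and 6.16 CPM after neomycin. The groups came close without overlapping. The log2 fold change was -0.60 (SE 0.18, adjusted p = 0.029), and without control 1 it was -0.36 with an adjusted p of 0.142. It was also not called without control 2 (adjusted p = 0.0692) or without neomycin 1, 2 or 3 (adjusted p = 0.0724, 0.0664 and 0.0552). The other type V chains passed the test with smaller differences, Col5a1 at -0.31 (adjusted p = 0.0499) and Col5a2 at -0.29 (adjusted p = 0.0237), as did Col3a1, the fibrillar collagen of distensible tissues, at -0.47 (adjusted p = 0.00364). The groups overlapped for Col5a1. With 1 sample left out at a time, the adjusted p-value by edgeR reached 0.219 for Col5a1, 0.0914 for Col5a2 and 0.0271 for Col3a1.

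Col24a1, a fibrillar collagen known from developing bone and cornea, moved the opposite way. It stood at 7.51, 5.39 and 4.25 CPM in control and at 11.4, 11.9 and 8.08 CPM after neomycin. The lowest neomycin sample was above the highest control sample, and the log2 fold change was 0.87 (SE 0.20, adjusted p = 0.00803). The cartilage-type fibrillar chains did not share a direction. Col2a1, with the highest level per length of the class, stood at 3301, 2588 and 2549 CPM in control and at 3106, 2908 and 2779.5 CPM after neomycin, with overlapping groups and a log2 fold change of 0.06 (adjusted p = 0.731). Col11a2 rose from 1896, 1554 and 1485 CPM to 2143, 2064 and 2077 CPM (log2 fold change 0.35, adjusted p = 0.0265), below the fold threshold. The adjusted p-value of Col11a2 by edgeR reached 0.113 with 1 sample left out at a time, and was 0.0679 with a correction for GC content. With the length correction described below, Col11a2 was at 0.55 (adjusted p = 0.00032), still below the fold threshold. Its partner Col11a1 did not pass, at -0.29 on the log2 scale (adjusted p = 0.0843), and neither did Col27a1, a collagen of the growth plate, at 0.07 (adjusted p = 0.606).

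The 6 type IV collagens of the basement membrane all had negative log2 fold changes, from -0.93 to -0.23 with a median of -0.54. Of these, 3 were called lower, 5 passed with a lower level on the adjusted p-value alone, and 5 had groups that did not overlap. The shares of all genes were 6.60%, 16.1% and 43.5%. After the correction for gene length described below, 3 passed lower, beside 11.5% of all genes. Together the 6 genes took 0.127%, 0.102% and 0.0861% of all counts in control 1, 2 and 3 and 0.0727%, 0.0701% and 0.0704% in neomycin 1, 2 and 3. The neomycin samples were nearly alike, and the controls spread upward from them.

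Type IV genes lie in head-to-head pairs that are read outward from a shared start region. The bases between or across the paired starts are shown because the members of a pair are compared next (RefSeq sequence, mouse build GRCm38, with starts from GENCODE vM21). The first exons of Col4a1 (chr8:11198423-11312826, minus strand) and Col4a2 (chr8:11312805-11449287, plus strand) overlap by 22 bases, so that reads within them can belong to either gene where strand is not used. The starts of Col4a4 (chr1:82448423-82586849, minus strand) and Col4a3 (chr1:82586921-82722059, plus strand) are separated by 71 bases. Those of Col4a6 and Col4a5 on chromosome X are separated by 1308 bases and are not printed. Capitals mark a match to GGGCGG, the GC box.
Col4a1 and Col4a2 overlap, chr8:11312805-11312826, plus strand: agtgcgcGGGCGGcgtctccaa
Col4a4 and Col4a3 gap, chr1:82586850-82586920, minus strand: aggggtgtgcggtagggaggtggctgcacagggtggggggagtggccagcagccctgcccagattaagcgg

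Col4a1, a chain of the type IV network found in every basement membrane, stood at 514, 409.8 and 362 CPM in control and at 276, 289.8 and 283 CPM after neomycin. All 3 neomycin samples were below the lowest control, and the log2 fold change was -0.60 (SE 0.11, adjusted p = 0.00231), just past the fold threshold. Col4a2, its partner in the same trimer, stood at 385, 304 and 269.7 CPM in control and at 225, 228 and 233 CPM after neomycin. It passed at -0.48 (SE 0.11, adjusted p = 0.00713) on the log2 scale, just short of that threshold. The call of Col4a1 was lost without control 1, at -0.44 (adjusted p = 0.00322), and without neomycin 1, at -0.58 (adjusted p = 0.00566), in both cases on the fold threshold.

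Col4a3 and Col4a4 form, with Col4a5, the type IV network of the glomerulus and of parts of the cochlea. Col4a3 stood at 29.5, 29.8 and 22.1 CPM in control and at 15.3, 10.7 and 16.7 CPM after neomycin. The groups were well apart, with a log2 fold change of -0.93 (SE 0.16, adjusted p = 0.00134) and a level 1.91-fold higher in control. Col4a4 stood at 18.5, 17.4 and 10.2 CPM in control and at 9.41, 7.71 and 10.1 CPM after neomycin. Here control 3 lay beside the neomycin samples, and the log2 fold change was -0.76 (SE 0.19, adjusted p = 0.0112). That call was lost without control 2, at -0.66 (adjusted p = 0.0599), and without neomycin 2, at -0.66 (adjusted p = 0.0611). Col4a5 passed with a smaller difference of -0.28 (adjusted p = 0.0465), and Col4a6, a chain of epithelial and smooth muscle basement membranes, did not pass at -0.23 (adjusted p = 0.256).

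Some markers of vessel cells, which make basement membrane, were called lower in the same comparison. Of all genes 6.60% were called lower, and 5.39% with the length correction. Of 10 endothelial markers 7 were called lower, with and without the length correction, among them Pecam1 at 9.78 ± 2.79 CPM in control and 1.49 ± 0.470 CPM after neomycin. The summed level of the list was 339 to 384 CPM in control and 318 to 367 CPM after neomycin, most of it Emcn, which stood at 252 ± 12.1 and 273 ± 26.2 CPM. Of 9 pericyte and smooth muscle markers 3 were called lower, with summed levels of 227 to 269 CPM in control and 186 to 199 CPM after neomycin, led by Pdgfrb at 115 ± 8.97 and 89.1 ± 2.31 CPM. No marker of either list was at 0 in all samples, and the part of these cells in the type IV result was not tested.

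**Figure D2:**
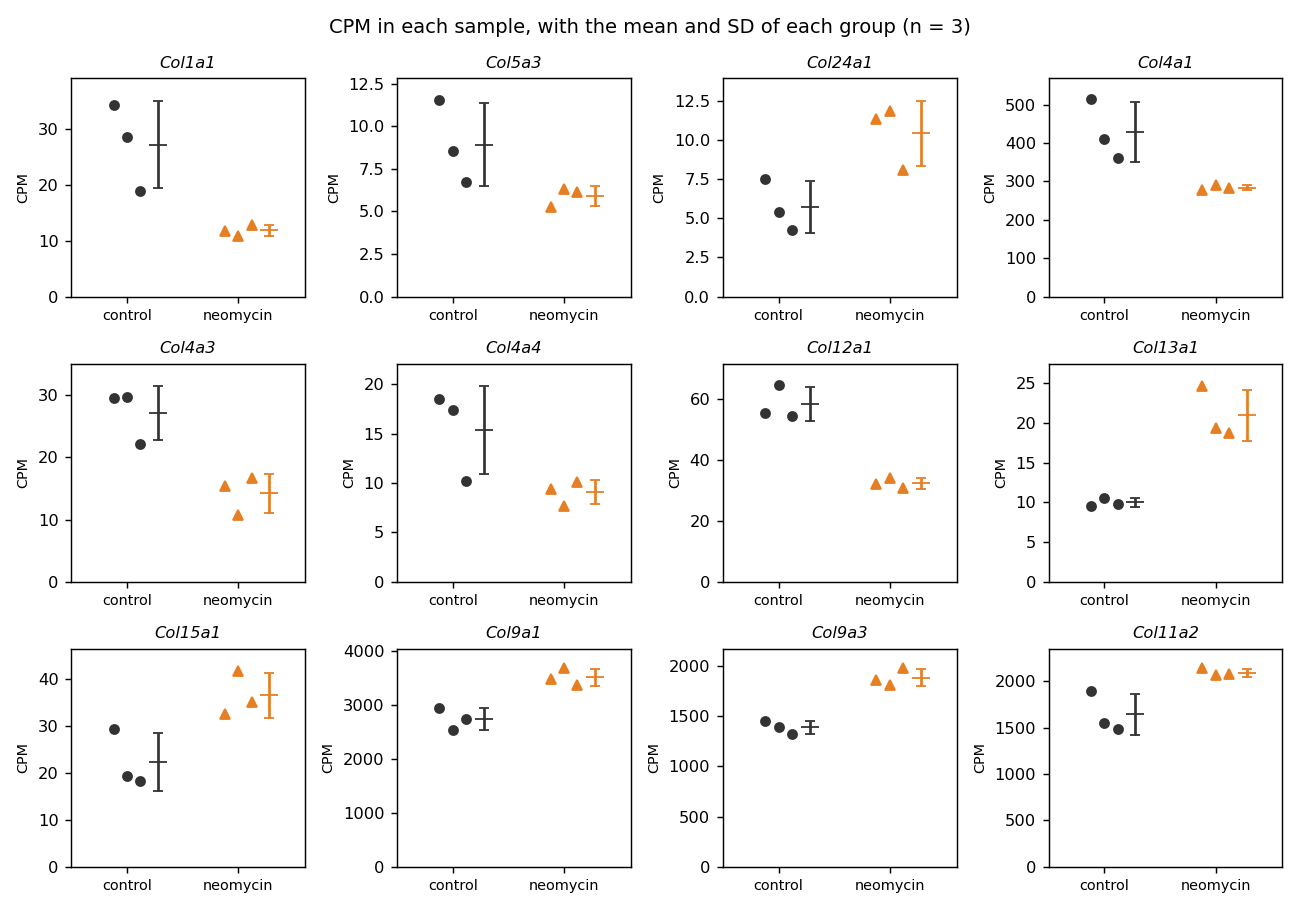
CPM in each sample for the 9 called collagen genes and for Col9a1, Col9a3 and Col11a2, circles for control 1, 2 and 3 and triangles for neomycin 1, 2 and 3 from left to right, with the mean and SD of each group (n = 3) beside them and each axis starting at 0. No panel has overlapping groups, and Col4a4 comes nearest, with 10.2 CPM in control 3 and 10.1 CPM in neomycin 3.

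The 9 FACIT collagens sit on the surface of fibrils. They split: the 3 type IX chains were higher after neomycin, and Col12a1 was lower. The class had 1 gene called lower and none called higher, 3 passed higher and 1 lower on the adjusted p-value alone, and the median log2 fold change was 0.24. As a share of all counts the class was at 0.661%, 0.583% and 0.585% in control and at 0.760%, 0.745% and 0.723% after neomycin, with no overlap between the groups.

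Col9a1 stood at 2946, 2546 and 2742 CPM in control and at 3491, 3694 and 3382 CPM after neomycin. Col9a2 stood at 1587, 1377 and 1517 CPM in control and at 1939, 1840.2 and 1806 CPM after neomycin. Col9a3 stood at 1455, 1390.1 and 1317 CPM in control and at 1859, 1812 and 1977 CPM after neomycin. These 3 chains make up the type IX trimer that coats type II fibrils, and for each of them every neomycin sample was above every control. The log2 fold changes were 0.36 for Col9a1 (SE 0.10, adjusted p = 0.0166), 0.32 for Col9a2 (SE 0.09, adjusted p = 0.0222) and 0.44 for Col9a3 (SE 0.09, adjusted p = 0.00374), all short of the fold threshold. With 1 sample left out at a time, the adjusted p-value by edgeR reached 0.0932 for Col9a1, 0.113 for Col9a2 and 0.0236 for Col9a3. With a correction for GC content Col9a2 did not pass (adjusted p = 0.059). With the length correction described below, Col9a1 was at 0.43, Col9a2 at 0.29 and Col9a3 at 0.43 (adjusted p = 0.00142, 0.0124 and 0.00103).

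Col12a1 (chr9:79598991-79718831), a FACIT of type I fibrils in dense connective tissue, stood at 55.5, 64.7 and 54.7 CPM in control and at 32.1, 34.2 and 30.7 CPM after neomycin. Both groups were tight and far apart. The log2 fold change was -0.85 (SE 0.08, adjusted p = 3.17e-05), so that the neomycin level was 0.555 of the control level, and the adjusted p-value was the lowest of the collagen genes. The other 5 FACIT genes did not pass: Col14a1 at a log2 fold change of 0.24, Col16a1 at 0.20, Col19a1 at 0.18, Col22a1 at 0.37 and Col20a1 at -0.03.

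Some markers of otic fibrocytes, of cartilage and of the cells that secrete the tectorial membrane were called higher in the same comparison. Of all genes 2.24% were called higher, and 1.39% with the length correction. Of 7 otic fibrocyte markers 3 were called higher, with summed levels of 1916 to 2172 CPM in control and 3505 to 3973 CPM after neomycin, led by Otor at 858 ± 115 and 1904 ± 177 CPM. Aqp1 of the same list passed lower, at -0.43 (adjusted p = 0.00974). Of the 10 cartilage genes in the list 6 could be tested and 2, Matn1 and Ucma, were called higher, with summed levels of 151 to 161 CPM and 205 to 228 CPM. Sox9, the highest of the list at 87.1 ± 6.33 and 94.1 ± 13.2 CPM, did not pass, at 0.11 (adjusted p = 0.408). Nor did Hapln1 at 0.93, Acan at 0.02 and Sox5 at -0.07 (adjusted p = 0.236, 0.974 and 0.644). Of 8 genes of tectorial membrane secreting cells 3 were called higher, with summed levels of 5747 to 7218 CPM and 7979 to 11487 CPM, led by Tectb at 4230.1 ± 596 and 6445 ± 1520 CPM, while Otogl passed lower at -0.56 (adjusted p = 0.0393). Of these called genes, Matn1 of the cartilage list and Dcn of the tectorial membrane list are counted again among the fibril partners below. With the length correction 3 fibrocyte, 2 cartilage and 0 tectorial membrane markers were called higher. None of the markers tested was at 0 in all samples, and the part of these cells in the type IX and Col11a2 values was not tested.

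Of the 4 transmembrane collagens 1 was called higher and 1 passed lower, with a median log2 fold change of -0.33. Col13a1 (chr10:61838236-61979108, minus strand), a membrane collagen of cell contacts and of the neuromuscular junction, had the largest rise among the collagen genes. It stood at 9.58, 10.6 and 9.79 CPM in control and at 24.7, 19.4 and 18.8 CPM after neomycin. The controls lay within about 1 CPM of each other and far below every neomycin sample, with a log2 fold change of 1.07 (SE 0.12, adjusted p = 7.8e-05), a rise of 2.10-fold. Col23a1, with the highest level per length of the class in control and over all 6 samples but below Col13a1 after neomycin, fell from 31.2, 36.3 and 30.8 CPM to 23.5, 24.9 and 25.0 CPM (log2 fold change -0.42, adjusted p = 0.00488). Col25a1 at -0.24 (adjusted p = 0.254), and Col17a1 at -1.04 (SE 0.77, adjusted p = 0.332) on few counts, did not pass.

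Both multiplexins, collagens of the zone around basement membranes whose ends can be cut off as antiangiogenic fragments, had positive log2 fold changes. Col15a1 (chr4:47208161-47313167, plus strand) stood at 29.3, 19.3 and 18.2 CPM in control and at 32.6, 41.7 and 35.1 CPM after neomycin. Control 1 was the nearest to the neomycin samples without overlapping them, and the log2 fold change was 0.71 (SE 0.16, adjusted p = 0.00618). Col18a1, the source of endostatin, stood at 557, 486 and 505 CPM in control and at 603, 545 and 517 CPM after neomycin. These groups overlapped, and the log2 fold change was 0.11 (adjusted p = 0.4).

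The 250 bases before the start are shown for Col13a1, Col15a1 and Col24a1, the members called higher, so that their sequences can be compared (RefSeq, GRCm38.p6, each 5′ to 3′ on the strand of the gene). The starts are those of RefSeq, and for Col15a1 that start lies 149 bases before the GENCODE start given above. TATAAA (the TATA box), CCAAT and GGGCGG (the GC box) were searched on both strands, and capitals mark a match.
Col13a1, chr10:61979109-61979358, minus strand: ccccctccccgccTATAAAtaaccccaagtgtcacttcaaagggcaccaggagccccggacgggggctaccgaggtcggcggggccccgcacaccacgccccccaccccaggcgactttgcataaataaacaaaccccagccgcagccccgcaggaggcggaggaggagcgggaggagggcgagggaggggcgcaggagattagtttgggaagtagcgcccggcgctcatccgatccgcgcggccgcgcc
Col15a1, chr4:47207762-47208011, plus strand: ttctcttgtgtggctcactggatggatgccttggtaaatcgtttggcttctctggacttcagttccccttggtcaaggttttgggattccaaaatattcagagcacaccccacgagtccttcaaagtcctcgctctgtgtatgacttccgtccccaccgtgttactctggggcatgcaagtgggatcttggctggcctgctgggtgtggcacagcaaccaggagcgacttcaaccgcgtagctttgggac
Col24a1, chr3:145292222-145292471, plus strand: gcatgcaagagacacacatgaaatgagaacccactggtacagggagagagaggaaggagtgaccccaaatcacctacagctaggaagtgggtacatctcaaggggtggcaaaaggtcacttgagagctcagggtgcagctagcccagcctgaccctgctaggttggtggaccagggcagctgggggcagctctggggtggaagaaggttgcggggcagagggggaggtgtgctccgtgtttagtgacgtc

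Col13a1 held 1 TATAAA, close to the end of its window that lies farthest from the start. The windows of Col15a1 and Col24a1 held none of the 3 motifs. The GC content was 68.8% for Col13a1, 53.6% for Col15a1 and 58% for Col24a1. Of 38 windows that matched 35 collagen genes, 22 (57.9%) held GGGCGG, 13 (34.2%) held CCAAT and 5 (13.2%) held TATAAA. Among 32851 windows of all genes the shares were 32.7%, 33.8% and 12.4%. A match is a description of the letters in these windows.

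Among the 5 beaded filament genes tested, none was called, 2 passed lower, 4 log2 fold changes were negative and the median was -0.48. Col6a1, the first chain of the type VI microfibrils around cells and the highest of the class per length, stood at 97.7, 79.4 and 60.4 CPM in control and at 52.4, 64.6 and 53.1 CPM after neomycin. Control 3 lay below neomycin 2, so the groups overlapped, and the log2 fold change was -0.48 (adjusted p = 0.0236). Col6a2 passed at -0.54 (adjusted p = 0.016), again with overlapping groups, and Col6a3 did not at -0.22 (adjusted p = 0.293). Without control 3 the type VI chains Col6a1 and Col6a2 were called lower, at -0.63 (adjusted p = 0.00159) and -0.70 (adjusted p = 0.000924), and without neomycin 2 they were also called, at -0.59 (adjusted p = 0.0313) and -0.62 (adjusted p = 0.0333). Col6a6 at 0.10 and Col28a1 at -1.07 (SE 0.56, adjusted p = 0.171) did not pass, and Col28a1 was called without control 3, at -1.47 (adjusted p = 0.0409).

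Of the 3 network and anchoring genes tested, 1 passed lower and the median log2 fold change was 0.06. Col8a1, a network collagen of vessel walls and of the corneal basement membrane, stood at 254, 307 and 273 CPM in control and at 205, 195 and 199 CPM after neomycin. The groups were far apart, with a log2 fold change of -0.48 (SE 0.08, adjusted p = 0.00149). Its partner Col8a2 did not pass at 0.16 (adjusted p = 0.113), nor did Col7a1, the anchoring fibril collagen, at 0.06 (adjusted p = 0.738). Col26a1, in no class above, stood at 59.6, 46.4 and 42.1 CPM in control and at 67.3, 74.6 and 75.7 CPM after neomycin. It passed without overlap at a log2 fold change of 0.55 (SE 0.11, adjusted p = 0.00346), just under the fold threshold. It was past that threshold without control 1, at 0.72 (adjusted p = 8.54e-05), and without neomycin 1, at 0.61 (adjusted p = 0.00305).

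**Figure D3:**
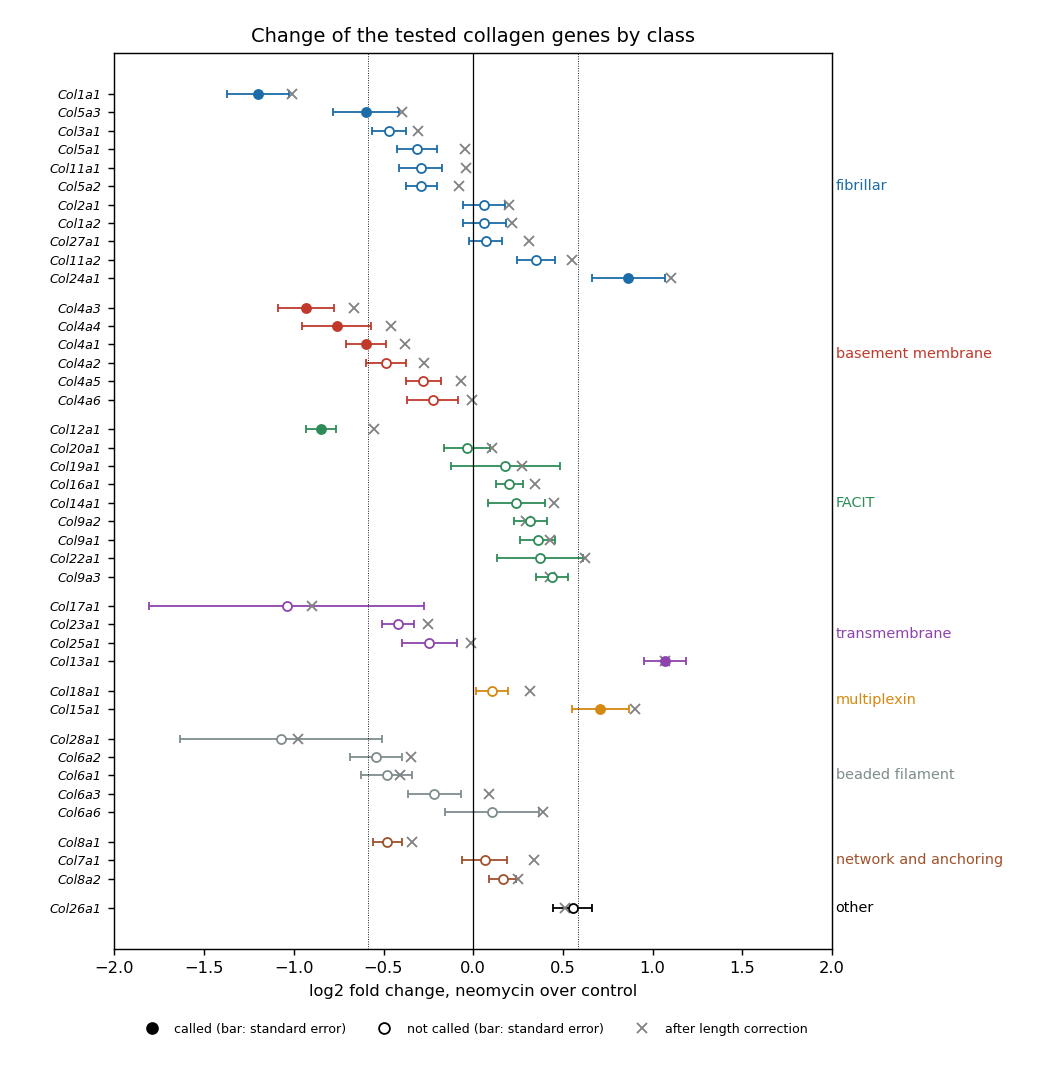
Log2 fold change of the 41 tested collagen genes, neomycin over control, by class, with bars for the SE, filled circles for called genes, dotted lines at a fold change of 1.5 in either direction and crosses for the value after the length correction described in the next paragraph. The 6 basement membrane genes all lie left of 0, and the crosses lie to the right of the circles for most genes.

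The difference between the groups moved with gene length across the whole table. The median log2 fold change of all genes went from 0.35 for genes with under 1 kb of exon, through 0.03 for 2 to 4 kb, to -0.29 for genes over 8 kb, and the share called lower went from 2.957% to 17.61%. Collagen genes are long: their median exon length was 6119 bases, against 3216 for all genes tested. In the bins of 4 to 6 kb, 6 to 8 kb and over 8 kb the collagen medians were -0.23 (14 genes), -0.24 (15 genes) and -0.26 (8 genes), beside -0.12, -0.23 and -0.29 for all genes. The 4 collagen genes of 2 to 4 kb, Col9a2, Col9a3, Col13a1 and Col26a1, were all positive, with a median of 0.50.

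When the trend of each library on exon length was removed before the test, 5 collagen genes were called, Col13a1, Col15a1 and Col24a1 higher and Col1a1 and Col4a3 lower, beside 6.79% of all genes (1.39% higher and 5.39% lower). The median of the collagen genes was then 0.09, and 14 passed higher and 9 lower on the adjusted p-value alone, beside 20.3% of all genes (8.78% higher and 11.5% lower). Some of the 14 had not passed before the correction. They were Col27a1 at 0.31, Col16a1 at 0.34 and Col18a1 at 0.32 (corrected adjusted p = 0.00355, 0.00368 and 0.00679). The same held for Col8a2 at 0.25, Col14a1 at 0.45 and Col7a1 at 0.34 (corrected adjusted p = 0.017, 0.0309 and 0.0448). The class medians were -0.04 for fibrillar, -0.33 for basement membrane, 0.34 for FACIT, -0.13 for transmembrane, 0.61 for multiplexin, -0.35 for beaded filament and 0.25 for network and anchoring genes. The calls lost were Col4a1 at -0.38 (adjusted p = 0.00704), Col4a4 at -0.46 (adjusted p = 0.0513), Col5a3 at -0.40 (adjusted p = 0.113) and Col12a1 at -0.55 (adjusted p = 0.000656), Col4a1 and Col12a1 on the fold threshold alone. On the adjusted p-value alone 3 type IV genes passed lower. Col4a5 at -0.07 (adjusted p = 0.534) and Col4a6 at -0.01 (adjusted p = 0.969) did not pass. Neither did Col5a1 at -0.05 (adjusted p = 0.739) and Col5a2 at -0.08 (adjusted p = 0.485). The part of length in each of these differences was not tested beyond this correction.

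**Figure D4:**
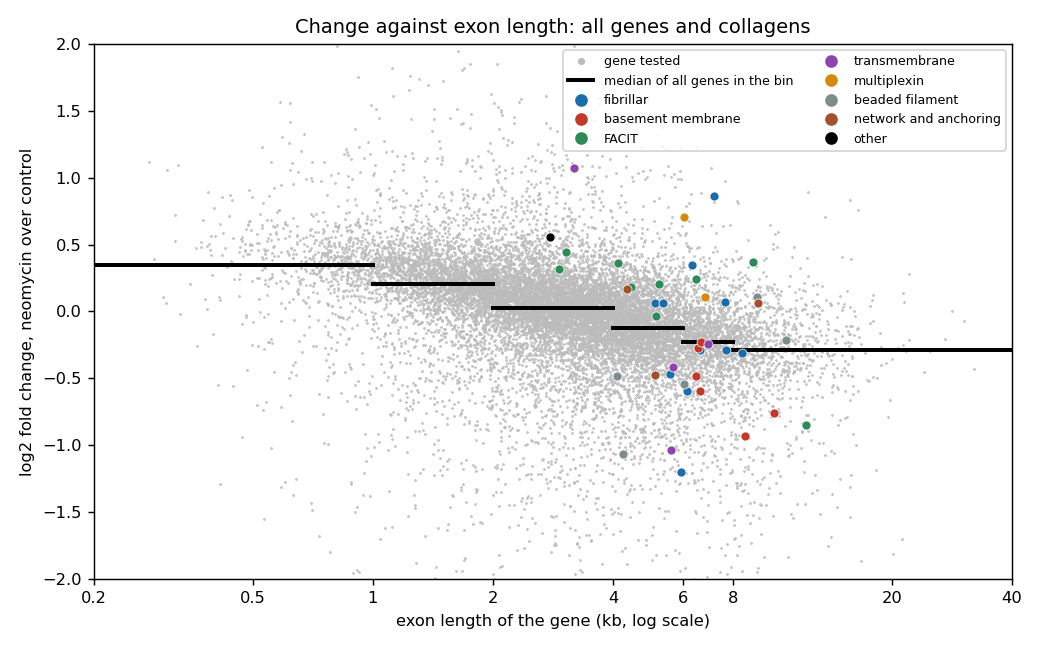
Log2 fold change, neomycin over control, against exon length in kilobases on a log scale, with grey points for all genes tested, coloured points for collagen genes by class and bars for the median of all genes in each length bin; genes outside the axes are not drawn. The bars step down from 0.35 under 1 kb to -0.29 over 8 kb, and Col13a1, Col15a1 and Col24a1 lie well above the bar of their length.

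Chains that share a trimer were compared as ratios of counts within a library, which need no scaling between libraries. For 5 of 12 pairs the ratios of the groups did not overlap. Of all single genes tested 43.5% had groups that did not overlap in CPM, and no such share was computed for other gene pairs. An exact two-sided permutation test of 3 against 3 cannot go below p = 0.1, and each of these 5 had that value, with an adjusted p of 0.24 over the 12 pairs. The log2 ratio of Col1a1 to Col1a2 differed by -1.23 between neomycin and control, that of Col11a1 to Col11a2 by -0.64, that of Col8a1 to Col8a2 by -0.64, that of Col6a1 to Col6a3 by -0.26 and that of Col4a1 to Col4a2 by -0.12. Per length, Col11a1 was at 0.585, 0.653 and 0.538 of Col11a2 in the controls and at 0.359, 0.360 and 0.422 of it after neomycin. Col8a1 was at 4.56, 6.17 and 5.35 times Col8a2 in the controls and at 3.50, 3.46 and 3.28 times it after neomycin. The ratio of Col4a1 to Col4a2 was nearly constant within a group, at 1.30, 1.31 and 1.31 per length in the controls and 1.20, 1.24 and 1.19 after neomycin. The ratios of Col9a1 to Col9a2 and to Col9a3, of Col5a1 to Col5a2, of Col4a3 to Col4a4, of Col4a5 to Col4a6, of Col6a1 to Col6a2 and of Col2a1 to Col11a1 overlapped between the groups. All these ratios are without the correction for the length trend. With it, the ratios of 7 of the 12 pairs did not overlap. These were the 5 above, and Col9a1 to Col9a2, at a difference of 0.23, and Col4a3 to Col4a4, at -0.26. The 5 differences, in the order above, were then -1.17, -0.55, -0.54, -0.70 and -0.10.

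**Figure D5:**
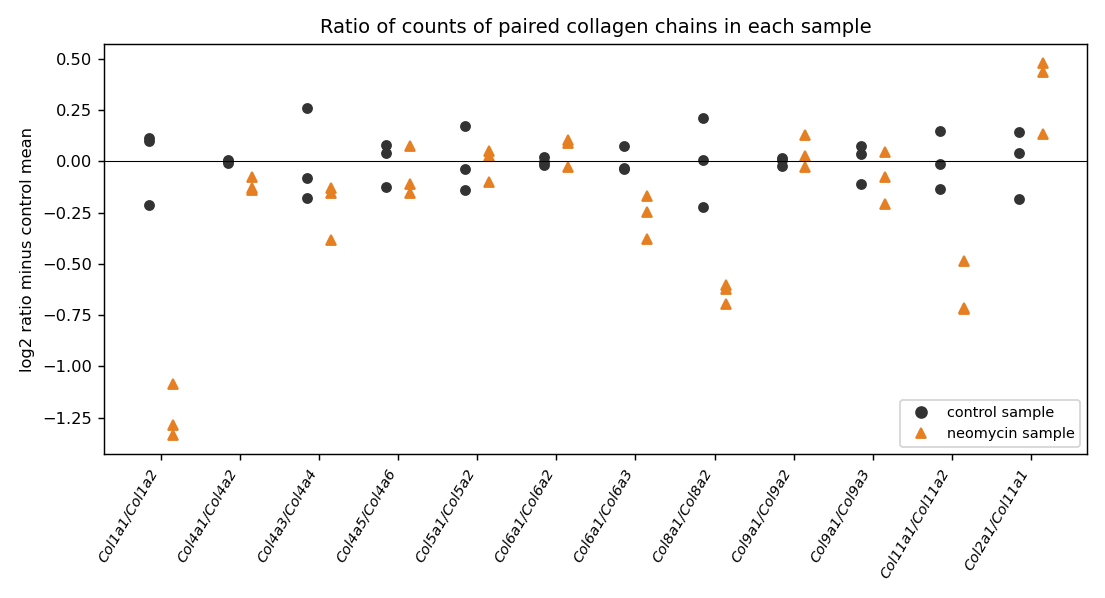
Log2 ratio of counts of paired collagen chains in each sample, less the mean of the 3 controls, circles for control and triangles for neomycin. The neomycin samples of Col1a1 to Col1a2 lie more than 1 log2 unit below the mean of the controls. Without the length correction, as drawn, the ranges of the groups overlap for both Col9a1 pairs.

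Collagen chains are hydroxylated and folded in the endoplasmic reticulum, exported, trimmed outside the cell and cross-linked, and the fibrils are bound by partner proteins and by receptors. Of 67 tested genes in 5 lists for these steps, 5 were called higher (7.46%, against 2.24% of all genes) and 9 lower (13.4%, against 6.60%), and 28 passed on the adjusted p-value alone (41.8%, against 29.0%). Among the 15 hydroxylation genes P3h2, a prolyl 3-hydroxylase of type IV collagen, was called lower, from 1.05 ± 0.396 to 0.309 ± 0.152 CPM (log2 fold change -1.77, adjusted p = 0.0146), and it was not called without control 1 (adjusted p = 0.0542) or neomycin 2 (adjusted p = 0.0652). The median of that list was 0.00. Of the 11 folding and export genes Fkbp7, an endoplasmic reticulum peptidyl-prolyl isomerase, was called higher at 0.60 and Creb3l2, a transcription factor of secretory load in cartilage, lower at -0.96, with a median of -0.23. Without control 1 or neomycin 3 Fkbp7 was at 0.56, under the fold threshold. Of the 12 cleavage and cross-linking genes the lysyl oxidase relatives Loxl2, at -0.59, and Loxl4, at -1.09, were called lower, with a median of -0.10. Lox itself stood at 615 ± 90.8 and 539 ± 30.6 CPM and did not pass (adjusted p = 0.196). Loxl2 was at the fold threshold and was not called with RLE scaling or DESeq2, both at -0.58, or without control 2, control 3, neomycin 1 or neomycin 3, from -0.57 to -0.54.

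Partner proteins of fibrils went both ways. Of 18 tested, the small proteoglycan Dcn was called higher, from 840.1 ± 90.4 to 1306 ± 20.4 CPM (log2 fold change 0.64, adjusted p = 0.00064), with Dpt at 0.81 and the matrilins Matn1 at 0.92 and Matn4 at 0.86. The proteoglycans Fmod, from 15.6 ± 5.97 to 6.89 ± 1.27 CPM (-1.18, adjusted p = 0.00342), and Aspn, from 3.50 ± 0.432 to 0.833 ± 0.215 CPM (-2.06, adjusted p = 0.000204), were called lower, as was Thbs2 at -0.70. Without control 2, Dcn was at 0.56 and Dpt had an adjusted p of 0.0563, so neither was called. The median of the list was -0.00. Of 11 receptor genes none passed higher and 2 were called lower, Itga1 from 12.2 ± 2.00 to 5.95 ± 0.600 CPM (-1.03, adjusted p = 0.000393) and Itga2 from 1.79 ± 0.608 to 0.746 ± 0.114 CPM (-1.27, adjusted p = 0.0151). These encode the alpha subunits of 2 collagen-binding integrins, and their partner Itgb1 stood at 696 ± 45.5 and 635 ± 22.2 CPM. Itga2 was not called without control 1, control 2 or neomycin 3 (adjusted p = 0.0775, 0.0616 and 0.0505). With the length correction 3 partner genes were called higher and 7 lower, beside 1.39% and 5.39% of all genes. Fkbp7 at 0.26, Dcn at 0.50, Dpt at 0.63 (adjusted p = 0.064), Loxl2 at -0.43 and Thbs2 at -0.52 were then no longer called, and Matn2 was called higher in addition, at 0.70.

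Other marker lists were compared for the cells that make collagen, beside 2.24% of all genes called higher and 6.60% called lower. Of 10 mesenchyme markers 1, Prrx1, was called lower, at -0.59, but not with the length correction, at -0.32 (adjusted p = 0.0895). Tbx18 at 0.22 and Foxc1 at 0.34 passed higher, the median of the list was 0.17, and the summed levels overlapped, with 471 to 523 CPM in control and 476 to 515 CPM after neomycin, led by Pdgfra at 167 ± 14.0 and 143 ± 10.9 CPM. Of 10 Schwann cell markers 1 was called lower (569 to 639 against 536 to 565 CPM, led by Sox10), of 10 supporting cell markers 2 were called lower (2209 to 2623 against 2834 to 2986 CPM), and of 10 macrophage markers 4 were called higher (90.3 to 119 against 128 to 158 CPM, led by C1qc), 1 of them with the length correction. Most of the supporting cell sum was S100a1, at 1561 ± 216 and 2144 ± 126 CPM, which passed higher (0.46, adjusted p = 0.00887), but 4 others of that list passed lower. The part of these cells in the collagen values was not tested.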

How the data were processed

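RNA came from 6 pooled explant samples, 3 control and 3 neomycin, grouped by the labels. Per the submitters' processing notes and the methods, the authors called bases with CASAVA 1.8, trimmed reads with Trimmomatic 0.23, aligned them with HISAT2 and counted them with HTSeq on UCSC mm10, and deposited raw counts per gene symbol. The strand setting is not given in the sources used here, so reads of overlapping genes on opposite strands (for Col4a1 and Col4a2, Col4a3 and C430014B12Rik, Col9a3 and Tcfl5) may have been shared or lost. The authors used DESeq2 with the same thresholds.

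From the counts, edgeR 4.0.16 (R 4.3.3) was run with TMM, filterByExpr and the quasi-likelihood test, with Benjamini-Hochberg adjustment over 15988 genes. The SE was obtained from the F statistic, as |log2 fold change| over sqrt(F). Exon lengths and positions came from GENCODE vM21 (GRCm38), which held 23376 symbols directly and 670 through a synonym. Ratios used a prior count of 0.5. Alternatives were RLE and upper quartile scaling, other filters and thresholds, DESeq2 1.42.0, limma-voom (limma 3.58.1), each sample left out, the replicate number as a block, and lowess corrections (span 0.3) for length or GC content. The code was tested on simulated data. Every tested collagen gene is named, with values per sample for those called and for the highest per length of each class, and for further members chosen after their values were seen. The called partner genes and the most abundant marker of each list are also named, other genes being chosen later. Members and lists were chosen with earlier results of these data known.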

Additional observations from a re-analysis of the deposited data

How the results depend on the processing

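The 9 collagen calls were also made under RLE scaling, both other filters, DESeq2 and the GC correction. Upper quartile scaling and limma-voom gave 7 calls, all shared, and both lost Col4a1 and Col5a3 on the fold threshold. Leaving out each sample in turn gave 7 to 12 calls, 3 to 4 higher and 4 to 9 lower, with 12 without control 3. Without control 1, class medians were -0.38 for basement membrane and -0.16 for fibrillar genes. Over the 6 such fits the median of all collagen genes ran from -0.34 to -0.027 (without control 1), that of FACIT from 0.17 to 0.37, and partner genes called higher from 3 (without control 2) to 6. With no fold change threshold 23 collagen genes passed, 8 higher and 15 lower, and 28 partner genes, 11 higher and 17 lower. The length correction left 5 collagen calls, 2 of them lower, and 3 partner genes called higher. It moved the medians to 0.089 for all collagen genes, which reversed the sign, -0.042 for fibrillar, -0.33 for basement membrane, 0.34 for FACIT, -0.13 for transmembrane, 0.61 for multiplexin and 0.25 for network and anchoring genes. The network median was -0.21 with no filter and -0.20 with DESeq2, both negative, where Col10a1 enters. After the group mean was subtracted from the log CPM of each gene, same-numbered samples correlated at 0.17, 0.03 and 0.09 over 15988 genes. Control 1 and control 3 correlated best with the neomycin sample of their own number. Control 2 correlated best with neomycin 3 (0.032, against 0.026 with neomycin 2). These values do not settle whether the numbers mark pairs, and the main fit did not use pairs. With the replicate block 7 collagen genes were called, all shared with the 9, and Col4a1 and Col5a3 were again lost on the fold threshold. The block with the length correction gave 5 calls, 2 lower, and medians of 0.090 for all collagen genes, again reversed, -0.042 for fibrillar, -0.32 for basement membrane, 0.34 for FACIT, -0.13 for transmembrane, 0.62 for multiplexin and 0.25 for network and anchoring genes. With 3 samples a group, no ratio of chains could pass its exact test.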
